A study of Mus musculus with 15 samples.

Results

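The 9 genes described here encode receptors for immunoglobulin G (IgG) and the proteins that pass their signal on. They are Fcgr1, Fcgr2b, Fcgr3, Fcgr4, Fcer1g, Fcgrt, Syk, Tyrobp and Lyn. They were chosen by name from the 46078 genes of the deposited count table, as receptors for the class of antibody that was injected, and all 9 were found there. The rule itself uses no measured value.

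Fc gamma receptors are cell-surface proteins that bind the constant (Fc) part of IgG, and in the kidney they are known mainly from macrophages and other myeloid cells. Fcgr1, Fcgr3 and Fcgr4 encode activating receptors whose binding chain has no signaling motif of its own and depends on the common gamma chain, the product of Fcer1g. Lyn, a Src family kinase, phosphorylates the tyrosines of that chain, and Syk then docks there and carries the signal onward. Fcgr2b encodes the inhibitory receptor, which recruits phosphatases instead. Tyrobp encodes a related adaptor (DAP12) that serves other myeloid receptors. Fcgrt encodes the neonatal Fc receptor, which recycles IgG and albumin and is known from podocytes, proximal tubule and endothelium as well as from myeloid cells.

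RNA-seq was made from the podocyte fraction of male C57BL/6J mice in 3 groups. Young mice were 4 months old and were not injected. Aged mice were 21 months old and received either the isotype control antibody 2A3 (IgG2a group) or the anti-PD-1 antibody RMP1-14 (aPD1ab group), both rat IgG2a antibodies, each week at 12 mg/kg over 8 weeks, although the sample titles of the aPD1ab group give 47 days. Because the young mice were not injected, age and the injection of an antibody cannot be told apart in either comparison with them. The fraction was pulled from digested kidney cortex with a pair of rabbit antibodies to nephrin, a podocyte surface protein, and magnetic beads against rabbit IgG, so that the sort itself exposed the cells to IgG. The labels list 5 mice a group, and 5 young, 4 IgG2a and 4 aPD1ab libraries could be tied to a group and were used. The labels do not carry the numbers that head the columns of the count table, so the groups rest on the same numbers as printed in a plot of these libraries in the published study. Replicate numbers follow the order of the columns and name no particular mouse.

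The libraries held between 19912969 and 32717100 counts, so that 3 counts corresponded to 0.0917 to 0.151 CPM (counts scaled to the library size). The summed CPM of 8 podocyte markers ran from 807 to 1309 in young, from 298 to 397.5 in IgG2a and from 203 to 683 in aPD1ab libraries. All libraries also held other cells. The sum of 13 macrophage markers (Lyz2 and Csf1r the most abundant, none of them at or under 3 counts throughout) was 2191 to 3903 in young, 3438 to 10100 in IgG2a and 2547 to 5877 in aPD1ab libraries, and that of 8 proximal tubule markers was 8490 to 12930, 1083 to 6156 and 5990 to 17990. IgG2a replicate 1 stood apart from its group: its macrophage sum was 3438 against at least 7943 in the other 3, its proximal tubule sum was the 6156, and mitochondrially encoded genes took 29.3% of its counts against at least 38.7%. The tests of the 9 genes that include it are therefore given with and without it, as are most counts over lists. A low macrophage sum is among the traits that set this library apart, and most of the 9 genes follow macrophage transcripts. Leaving it out therefore favours higher IgG2a values of those genes by the choice itself. The same holds for the macrophage markers and for other genes that follow them. The values without it, their p-values included, are no independent support for a difference.

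Per kilobase of exon, which allows genes to be compared in level, the adaptors were the most abundant of the 9 genes. In young libraries Tyrobp stood at 165 ± 32.71 CPM per kb (SD, n = 5) and Fcer1g at 99.95 ± 23.6. Fcgrt at 60.0 ± 6.60, Fcgr4 at 55.55 ± 14.5 and Fcgr3 at 53.2 ± 8.11 followed, and these 3 did not differ beyond their spread. Below them lay Fcgr2b at 30.15 ± 3.61, Lyn at 24.9 ± 3.59, Fcgr1 at 15.2 ± 3.94 and Syk at 11.8 ± 3.06, where Fcgr1 and Syk lay within each other's spread and the steps from Fcgr2b to Lyn and from Lyn to Fcgr1 were larger than either SD. In the IgG2a group the order was Tyrobp (404 ± 156, n = 4), Fcer1g, Fcgr3, Fcgr4, Fcgrt, Fcgr2b, Lyn, Fcgr1 and Syk, and Fcgrt had moved from the third place to the fifth.

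The motifs that separate activation from inhibition in this family are short, and their coding bases in the mouse genome (GRCm38, GENCODE M21, principal transcripts) are shown because the groups below are ordered by them. The activation motif has a pair of tyrosines, and a search of the coding sequences found it in Fcer1g and Tyrobp and in none of Fcgr1, Fcgr2b, Fcgr3 and Fcgr4. The inhibitory motif with its single tyrosine is shown for Fcgr2b, and matches to it in the other genes were not recorded. Tyrosine codons are in capitals. The Fcer1g stretch lies on the minus strand at chr1:171229889-171230072 and the Tyrobp stretch on the plus strand at chr7:30415670-30417382, and both span an intron. The Fcgr2b stretch lies on the minus strand at chr1:170961071-170961088.
Fcer1g: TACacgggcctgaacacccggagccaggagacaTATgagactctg
Tyrobp: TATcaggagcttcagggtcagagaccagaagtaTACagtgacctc
Fcgr2b: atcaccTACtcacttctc

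The comparison of IgG2a with young libraries asks how the aged, isotype-injected podocyte fraction differed from the young fraction. With all libraries, Fcgr3, Fcer1g and Tyrobp were higher in IgG2a, with log2 fold changes of 1.21 to 1.55, and no gene of the 9 was lower. That is 3 of 9 genes, where 9.05% of the 15953 genes tested were higher and 8.38% lower by the same rule (edgeR's quasi-likelihood test, adjusted p under 0.05). Without IgG2a replicate 1 the count was 8 of 9, all but Fcgrt, where 22.1% of 16216 genes were higher and 23.5% lower. The count was 0 without young replicate 3 or IgG2a replicate 2 or 3, 1 (Fcer1g) without IgG2a replicate 4 and 2 (Fcer1g and Tyrobp) without young replicate 4. The median log2 fold change of the 9 genes was 0.95 with all libraries, beside 0.04 over all genes tested. Because these are bulk samples of a mixed fraction, fewer cells of a type and less RNA per cell cannot be told apart, in this comparison or in the others.

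**Figure D1:**
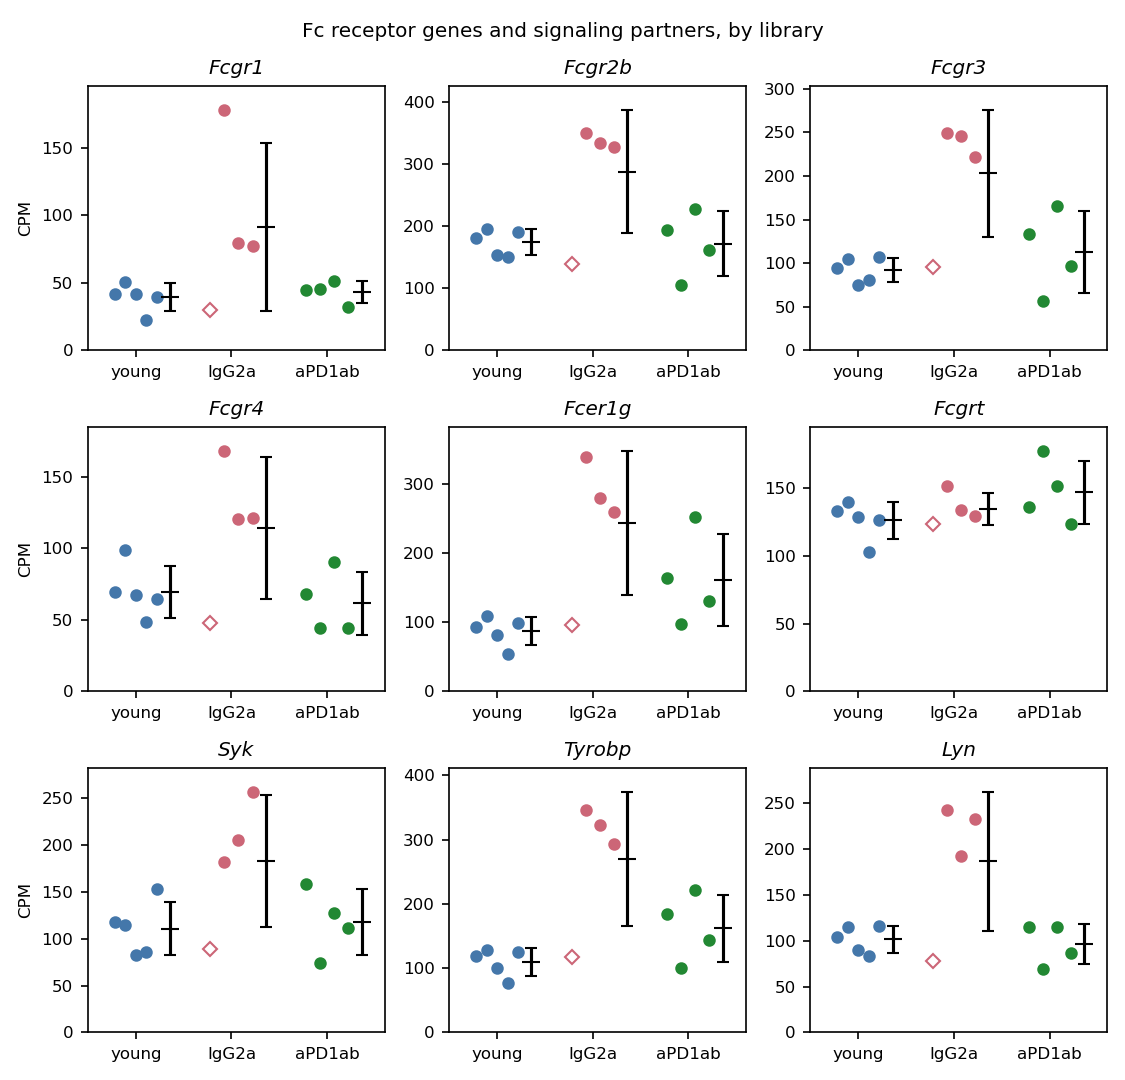
Normalised level of each of the 9 genes in CPM (y axis, starting at 0) in every library, by group (x axis). Circles are libraries, the open diamond is IgG2a replicate 1, and the bar is the mean with its SD. For 8 genes the other 3 IgG2a libraries lie above all young libraries and the diamond lies near them, while the Fcgrt libraries of all groups lie between 103 and 177 CPM.

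Among the activating receptors, Fcgr1, the high-affinity receptor, was at 41.5, 50.8, 42.0, 22.8 and 39.2 CPM in young replicates 1 to 5 and at 30.2, 178, 79.3 and 77.3 CPM in IgG2a replicates 1 to 4. Replicate 1 lay inside the young range and replicate 2 far above the others. The log2 fold change was 1.29 ± 0.43 (SE) and did not pass the test (adjusted p = 0.0618, edgeR). It was 1.57 ± 0.33 without replicate 1 (adjusted p = 0.00572) and 0.73 without replicate 2 (adjusted p = 0.203).

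Fcgr3, the low-affinity activating receptor, was at 94.1, 104.5, 75.3, 80.9 and 107 CPM in young and at 95.6, 249, 246 and 221 CPM in IgG2a libraries. All IgG2a libraries but replicate 1 were above every young library. Its log2 fold change was 1.21 ± 0.27 (adjusted p = 0.0204, edgeR), and 1.43 ± 0.12 without replicate 1 (adjusted p = 1.48e-05). Fcgr4, a receptor of intermediate affinity, was at 69.5, 98.9, 67.1, 48.5 and 64.8 CPM in young and at 48.0, 168, 120.4 and 121 CPM in IgG2a libraries. Replicate 1 was here below every young library, and the other 3 were above them all. Its log2 fold change of 0.79 ± 0.32 did not pass the test (adjusted p = 0.112, edgeR), and that of 1.02 ± 0.21 without replicate 1 did (adjusted p = 0.00344).

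Fcgr2b, the inhibitory receptor, was at 181, 196, 154.5, 151 and 191 CPM in young and at 140.0, 350.2, 334 and 328 CPM in IgG2a libraries. Replicate 1 lay under the young range, and the other 3 lay close together above it. Fitted on the log2 scale, it differed by 0.80 ± 0.25 with all libraries (adjusted p = 0.0560, edgeR) and 1.01 ± 0.11 without replicate 1 (adjusted p = 6.02e-05).

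Fcer1g, the gamma chain through which the activating receptors signal, had the largest fold change of the 9 genes. It was at 93.0, 108.5, 82.1, 54.6 and 98.6 CPM in young and at 95.4, 338.5, 279 and 259 CPM in IgG2a libraries. On the log2 scale the fold change was 1.55 ± 0.34 (adjusted p = 0.0199, edgeR) and 1.80 ± 0.20 without replicate 1 (adjusted p = 7.80e-05). Tyrobp, the other adaptor, was at 119, 129, 99.9, 76.4 and 125 CPM in young and at 117, 346, 323 and 293 CPM in IgG2a libraries. For both adaptors replicate 1 fell within the young range and the other 3 above it. The Tyrobp log2 fold change was 1.37 ± 0.30 (adjusted p = 0.0204, edgeR) and 1.60 ± 0.16 without replicate 1 (adjusted p = 3.17e-05).

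The kinases had smaller fold changes than the adaptors. Lyn was at 104, 115, 90.1, 83.1 and 116 CPM in young and at 77.5, 242.5, 192 and 232 CPM in IgG2a libraries, where replicate 1 was under the young range and the others above it. It had a log2 fold change of 0.95 ± 0.29 (adjusted p = 0.0511, edgeR) and of 1.19 ± 0.13 without replicate 1 (adjusted p = 5.66e-05). Syk was at 118, 114, 83.1, 85.4 and 153 CPM in young and at 88.6, 182, 205 and 257 CPM in IgG2a libraries. Its log2 fold change was 0.80 ± 0.29 (adjusted p = 0.0837, edgeR) and 1.01 ± 0.20 without replicate 1 (adjusted p = 0.00238).

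Fcgrt differed from the other 8 genes in that its libraries overlapped widely between the groups. It was at 133, 139.9, 128, 103 and 126.1 CPM in young and at 124, 151, 134 and 129 CPM in IgG2a libraries. The log2 fold change was 0.16 ± 0.12 (adjusted p = 0.377, edgeR) and 0.19 ± 0.11 without replicate 1 (adjusted p = 0.198). B2m, the light chain that pairs with it, was higher in IgG2a, with a log2 fold change of 1.04 ± 0.30 (adjusted p = 0.0406), and of 1.25 ± 0.19 without replicate 1 (adjusted p = 0.000428).

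With all libraries the CPM ranges of IgG2a and young overlapped for all 9 genes, where 4.78% of 16330 genes were higher without overlap. With replicate 1 left out, 8 of the 9 genes were higher without overlap, where 19.3% of all genes were. The macrophage markers moved with these genes: 12 of the 13 were higher in IgG2a than in young (all but Mertk), with a median log2 fold change of 1.37, and without replicate 1 it was 1.60. Proximal tubule markers moved the other way, with 7 of 8 lower and a median of -1.92, and so did podocyte markers, with 7 of 8 lower and a median of -1.70. Over all genes tested 9.05% were higher and 8.38% lower. Ratios of the 9 genes to the macrophage markers in the same library are given below, and none to the other markers. The part of these mixtures in the fold changes of the 9 genes was not tested.

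**Figure D2:**
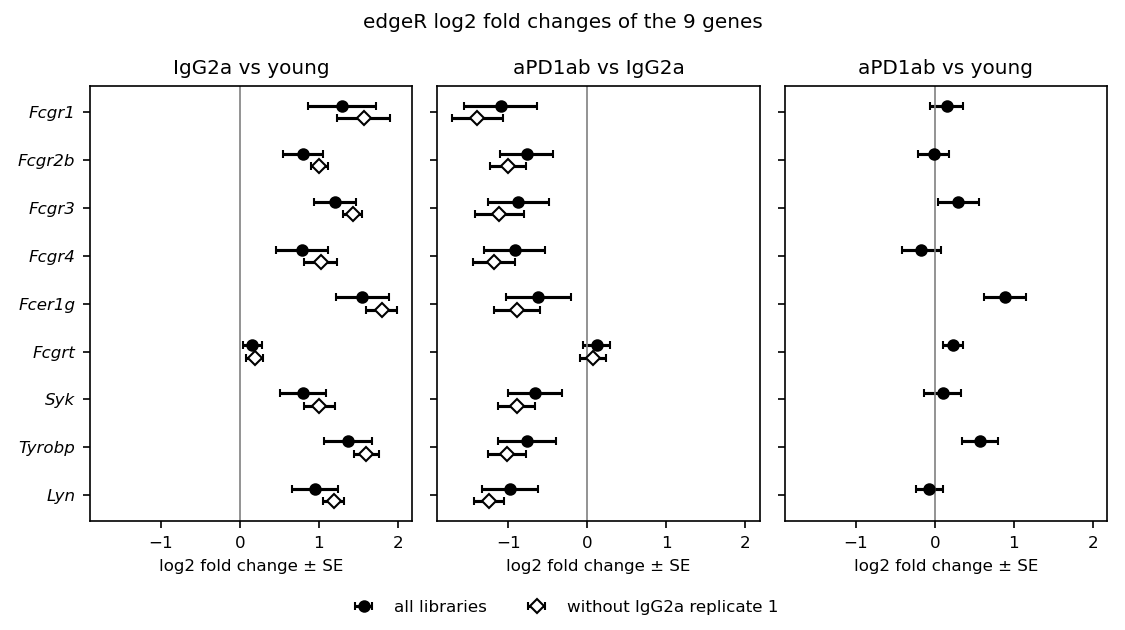
Fitted log2 fold changes (x axis, bars are SE) of the 9 genes (y axis) in the 3 comparisons. Filled circles use all libraries and open diamonds leave out IgG2a replicate 1, whose removal moved the first comparison up and the second down for 8 genes and left Fcgrt near 0.

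The comparison of aPD1ab with IgG2a asks what the anti-PD-1 antibody changed in aged mice. With all libraries, 8 of the 9 genes had lower means in aPD1ab, by 0.62 to 1.10 on the log2 scale, and Fcgrt had a higher one, but no difference passed the test. The edgeR test called 0 of the 9 genes and 0% of the 15530 genes tested, with 4 of the 9 and 4341 of all genes at an unadjusted p under 0.05. DESeq2 called 2087 of 15453 genes and 1 of the 9 (Lyn, adjusted p = 0.0461). Limma voom with sample quality weights called 6177 of 15530 genes and 8 of the 9. Without IgG2a replicate 1, edgeR called 7 of the 9 genes lower in aPD1ab, all but Fcer1g and Fcgrt, where 13.2% of 15770 genes were lower. When any other single library was left out, edgeR called 0 of the 9 genes and 0 of all genes. This comparison uses the same IgG2a libraries as the first, so the fold changes of both rest on the same IgG2a values.

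In aPD1ab replicates 1 to 4, Fcgr1 was at 44.6, 45.8, 51.4 and 31.8 CPM. All 4 were above IgG2a replicate 1 and below the other 3. The log2 fold change against IgG2a was -1.10 ± 0.46 (adjusted p = 0.163, edgeR). It was -1.39 ± 0.32 without IgG2a replicate 1 (adjusted p = 0.0164) and -0.56 without IgG2a replicate 2 (adjusted p = 0.387). Fcgr3 was at 133, 56.4, 166 and 96.95 CPM, a wide spread within the group, with a log2 fold change of -0.87 ± 0.39 (adjusted p = 0.180, edgeR) and of -1.11 ± 0.31 without that library (adjusted p = 0.0297). Fcgr4 was at 67.9, 44.2, 90.35 and 44.3 CPM. Replicates 2 and 4 were below all IgG2a libraries. Its log2 fold change was -0.92 ± 0.38 (adjusted p = 0.163, edgeR) and -1.18 ± 0.27 without IgG2a replicate 1 (adjusted p = 0.0159).

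Fcgr2b was at 194, 105, 227 and 162 CPM in aPD1ab libraries. Replicate 2 was the lowest here, as it was for Fcgr3, Fcgr4, Fcer1g, Tyrobp, Lyn and Syk. The log2 fold change was -0.77 ± 0.34 (adjusted p = 0.177, edgeR) and -1.002 ± 0.23 without IgG2a replicate 1 (adjusted p = 0.0160).

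Fcer1g kept the highest level in aPD1ab relative to IgG2a among the 8 genes that were lower. It was at 164, 97.5, 252 and 131 CPM, with a log2 fold change of -0.62 ± 0.41 (adjusted p = 0.340, edgeR). It was -0.89 ± 0.29 without IgG2a replicate 1, and the adjusted p of 0.0501 lay just past the threshold. Tyrobp was at 184, 99.75, 221 and 143 CPM, with a log2 fold change of -0.76 ± 0.37 (adjusted p = 0.208, edgeR) and of -1.02 ± 0.24 without that library (adjusted p = 0.0180).

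Lyn was at 114.5, 69.6, 114 and 86.4 CPM, with a log2 fold change of -0.98 ± 0.35 (adjusted p = 0.129, edgeR). Without IgG2a replicate 1 it was -1.24 ± 0.19, and its adjusted p of 0.00737 was the lowest of the 9 genes. Syk was at 158, 74.3, 127 and 111.5 CPM, with a log2 fold change of -0.66 ± 0.34 (adjusted p = 0.231, edgeR) and of -0.89 ± 0.24 without that library (adjusted p = 0.0251). Fcgrt was at 136, 177, 151 and 123 CPM, and replicate 2, the lowest for most of the other genes, was here the highest. Its log2 fold change was 0.12 ± 0.17 (adjusted p = 0.679, edgeR) and 0.07 ± 0.16 without IgG2a replicate 1 (adjusted p = 0.780). The CPM ranges of aPD1ab and IgG2a overlapped for all 9 genes, where 4.65% of all genes were lower and 7.05% higher without overlap. In the same comparison 11 of the 13 macrophage markers were lower in aPD1ab without IgG2a replicate 1, with a median log2 fold change of -1.18, and 0 of 13 passed with it (6 of 13 at an unadjusted p under 0.05, median -0.90, lowest adjusted p of any gene tested by edgeR 0.102). Without that library 13.2% of all genes tested were lower. It was set apart partly by its low sum of these same markers, so their count without it follows in part from the choice.

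The comparison of aPD1ab with young asks how far the aged, treated fraction stood from the young fraction, and it uses the same young libraries as the first. Fcer1g alone among the 9 genes passed the test, with a log2 fold change of 0.89 ± 0.27 (adjusted p = 0.0374, edgeR), where 12.4% of 15986 genes were higher and 9.97% lower. Its aPD1ab replicates 1, 3 and 4 were above every young library and replicate 2 lay among them. This call was lost when any of the 5 young libraries or aPD1ab replicate 1, 3 or 4 was left out, without a filter on low counts (adjusted p = 0.0675) and in a fit of all 3 groups (adjusted p = 0.0918). Tyrobp had the next largest value at 0.57 ± 0.23, which did not pass (adjusted p = 0.0959). Its replicates 1, 3 and 4 were also above all young libraries.

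The receptors themselves were close to their young levels in aPD1ab. Their log2 fold changes were 0.15 ± 0.21 for Fcgr1, -0.01 ± 0.20 for Fcgr2b, 0.30 ± 0.26 for Fcgr3 and -0.17 ± 0.25 for Fcgr4 (edgeR, adjusted p = 0.429 to 0.974). Those of Syk (0.10 ± 0.23), Lyn (-0.07 ± 0.17) and Fcgrt (0.23 ± 0.13) did not pass either. A p that misses the threshold does not show equal levels, and the SE of 0.13 to 0.26 on these values is the precision the 9 libraries allow. The ranges of all 9 genes overlapped, where 11.2% of all genes were higher and 10.4% lower without overlap. Of the macrophage markers, 0 of 13 were called by edgeR in this comparison (5 of 13 at an unadjusted p under 0.05, median 0.54).

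Because 8 of the 9 genes are myeloid and macrophage transcripts moved between the groups, each gene was also expressed per 1000 counts of the 13 macrophage markers in the same library, a ratio from which library size drops out. Tyrobp followed the markers most closely, at 33.0 to 35.0 in young, 33.0 to 36.9 in IgG2a and 34.6 to 39.2 in aPD1ab libraries. Its group means differed by at most 0.12 on the log2 scale, and with C1qa, C1qb and C1qc alone as the denominator the aged groups differed from young by -0.16 (IgG2a) and -0.06 (aPD1ab). Fcer1g was at 24.9 to 28.4 in young, 27.8 to 33.5 in IgG2a and 31.5 to 42.9 in aPD1ab libraries, so that young and aPD1ab did not overlap, where 0.606% of 16330 genes were higher in aPD1ab without overlap.

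Fcgr2b, Fcgr4 and Lyn were lower per macrophage marker count in both aged groups than in young, with no overlap. Of 16330 genes, 22.3% were lower without overlap in IgG2a and 11.9% in aPD1ab. Fcgr2b was at 52.0, 50.2, 53.5, 68.75 and 53.4 in young, at 40.7, 34.7, 34.2 and 41.3 in IgG2a and at 40.2, 41.4, 38.7 and 39.1 in aPD1ab libraries. Young replicate 4 was well above the others of its group. Fcgr4 was at 18.1 to 25.4 in young and 10.7 to 17.4 in the aged libraries of both groups. Lyn was at 29.4 to 37.9 and at 19.5 to 29.3, so that its groups all but touched.

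**Figure D3:**
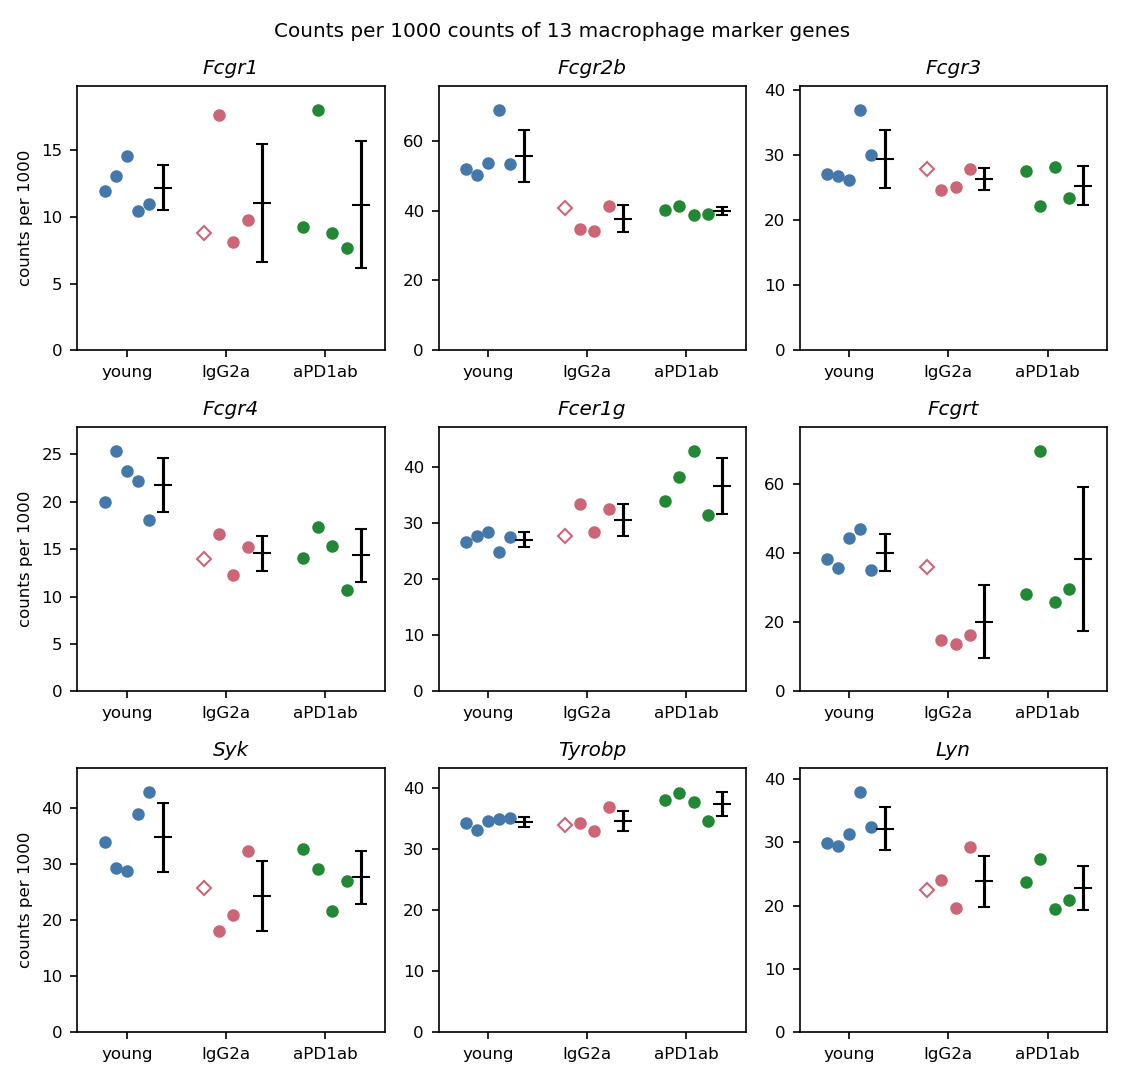
Counts of each of the 9 genes per 1000 counts of the 13 macrophage marker genes (y axis, starting at 0) in every library, by group (x axis). Symbols are as in the plot of CPM by library. Tyrobp lies between 33.0 and 39.2 in every library, and the aged libraries of Fcgr2b, Fcgr4 and Lyn lie below all young ones.

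In exact two-sided permutation tests over libraries the differences of Fcgr2b, Fcgr4 and Lyn from young reached p = 0.0159, the smallest that 4 against 5 libraries can give, in both aged groups. The log2 differences were -0.56, -0.58 and -0.44 in IgG2a and -0.47, -0.61 and -0.50 in aPD1ab. Fcer1g reached the same p in aPD1ab, with a difference of 0.43. After adjustment over the 27 tests (9 genes in 3 comparisons) none passed, with a lowest adjusted p of 0.0612 (exact permutation). Without IgG2a replicate 1 the differences of Fcgr2b, Fcgr4 and Lyn in IgG2a were -0.59, -0.56 and -0.42, each at p = 0.0357 (exact permutation), the smallest that 3 against 5 libraries can give. Between aPD1ab and IgG2a the ratios differed by less than 0.3 on the log2 scale for 8 of the 9 genes, and Fcgrt, with 0.91, had an exact permutation p of 0.114. With that comparison made without IgG2a replicate 1, these 8 still differed by less than 0.3, and Fcgrt by 1.23 (exact permutation p = 0.0571, the smallest that 4 against 3 libraries can give).

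The 8 aged libraries were also compared as a single group with young, a test added after the data were seen, in which p-values were adjusted over the 16330 genes with a ratio. Fcgr2b (-0.51), Fcgr4 (-0.60) and Lyn (-0.47) were lower and Fcer1g (0.30) was higher in the 8 aged than in the 5 young libraries (exact permutation, adjusted p = 0.0200 for the first 3 and 0.0341 for Fcer1g). For Fcgr2b, Fcgr4 and Lyn every aged library was already known to lie below all young ones. Pooling therefore had to give them the smallest possible p, which is no support beyond the lack of overlap given above. Of all genes, 95.0% had a lower mean ratio in the aged libraries, 18.6% passed as lower and 0.527% as higher, so that 3 of 9 lower is to be read against a background that itself fell and 1 of 9 higher against a small one. All 4 calls depended on single libraries or on the denominator. Without young replicate 4 the adjusted p of the first 3 was 0.0506, and without IgG2a replicate 1 that of all 4 was 0.0228. The Fcer1g call was lost in 11 of the 13 settings that leave out a library, and with C1qa, C1qb and C1qc alone as the denominator its difference was 0.13 (adjusted p = 0.238).

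Fcgrt again stood apart in these ratios. It was at 35.3 to 47.1 in young libraries, at 36.0 in IgG2a replicate 1 and at 13.7 to 16.2 in the other IgG2a libraries. In aPD1ab it was at 25.8 to 29.8 in replicates 1, 3 and 4 and at 69.6 in replicate 2. Its CPM changed little while the macrophage sum under it moved. Syk was at 28.8 to 42.9 in young, 18.0 to 32.3 in IgG2a and 21.6 to 32.8 in aPD1ab, and Fcgr3 at 26.1 to 36.9, 24.7 to 27.9 and 22.2 to 28.2, with overlap in each case.

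The make-up of the 4 Fc gamma receptors was taken as percent of their summed CPM per kb. The mean share of Fcgr3 was higher and that of Fcgr4 lower in both aged groups than in young. Fcgr3 made up 34.8% ± 3.69 (SD, n = 5) in young, 40.6% ± 3.67 (n = 4) in IgG2a and 39.6% ± 5.46 (n = 4) in aPD1ab libraries, and Fcgr4 made up 35.7% ± 3.89, 30.8% ± 1.63 and 30.6% ± 3.02. The inhibitory Fcgr2b held 19.7% ± 1.52, 17.4% ± 1.72 and 18.7% ± 1.81, and Fcgr1 held 9.75% ± 1.57, 11.2% ± 3.78 and 11.2% ± 3.95. The ranges of each receptor overlapped between young and both aged groups. Fcgr3 lay at 41.0% to 43.5% in replicates 1, 3 and 4 of both aged groups, above the young range of 31.0% to 38.8%. Replicate 2 of each aged group lay within that range. These shares are a description without a test.

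**Figure D4:**
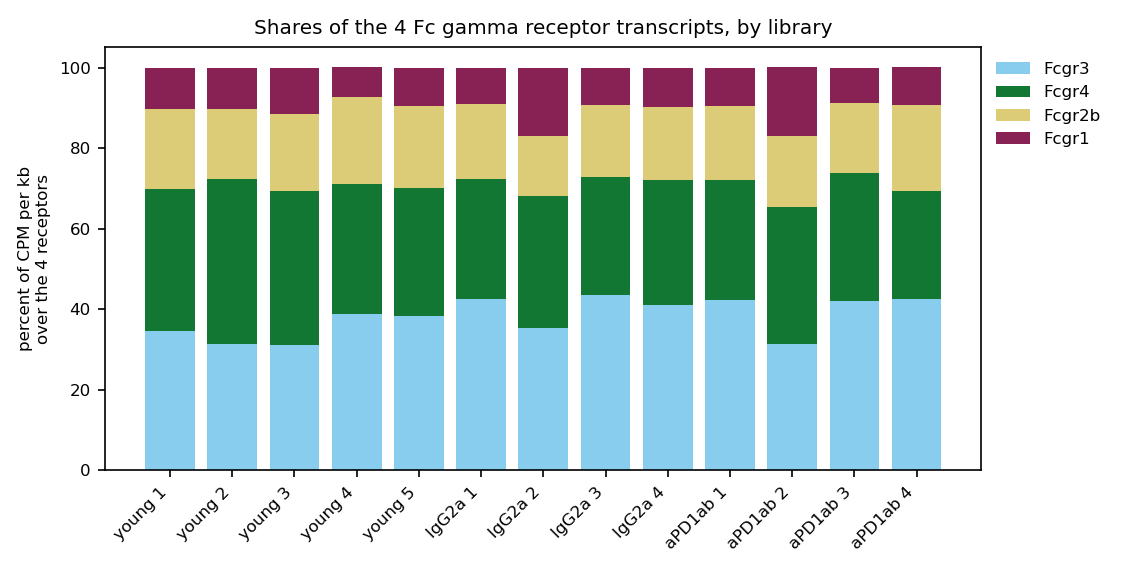
Stacked shares of Fcgr3, Fcgr4, Fcgr2b and Fcgr1 in percent of their summed CPM per kb (y axis) in each of the 13 libraries (x axis). Fcgr1 holds 16.9% in IgG2a replicate 2 and 17.1% in aPD1ab replicate 2, and 7.33% to 11.6% in the other 11.

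IgG2a replicate 2 and aPD1ab replicate 2 had the largest Fcgr1 share, and they also had the largest Fcgr1 count per 1000 macrophage marker counts, at 17.6 and 18.0 against 7.67 to 14.6 in the other 11 libraries. Fcgr1 is a known interferon-induced gene. The same libraries held the highest summed level of 6 interferon-stimulated genes (Ifit1, Ifit3, Isg15, Irf7, Oas1a and Rsad2), a list chosen after the Fcgr1 values were seen. The sum was 992 CPM in IgG2a replicate 2 and 516 in aPD1ab replicate 2, against 110.2 to 260 in the others. The order of the other 11 libraries by the sum was not their order by Fcgr1. Their highest sum (260, IgG2a replicate 3) went with 8.11 Fcgr1 counts per 1000. Their highest Fcgr1 value (14.6 per 1000, young replicate 3) went with a sum of 169.9. For Irf7, a transcription factor of the interferon response, the values were 504 and 221 CPM against 28.0 to 97.8. The libraries come from different groups, and the part of interferon signaling in the Fcgr1 values was not tested.

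**Figure D5:**
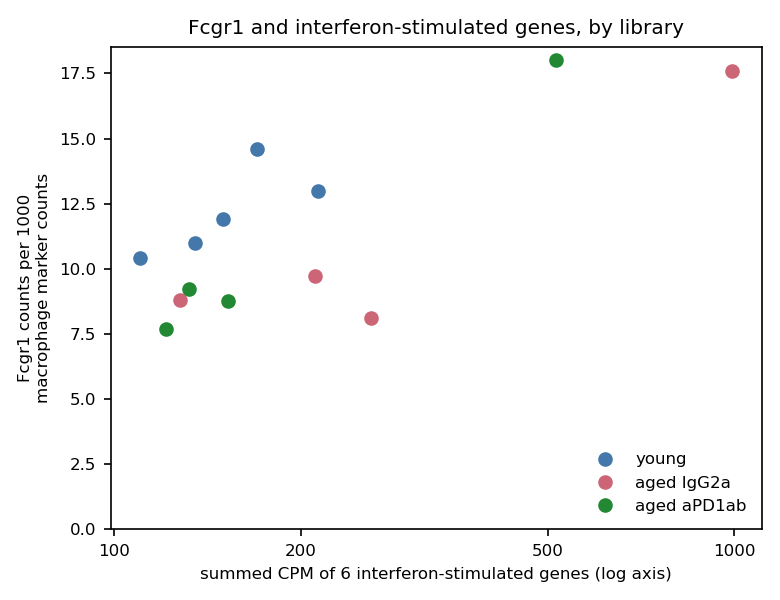
Fcgr1 counts per 1000 macrophage marker counts (y axis, starting at 0) against the summed CPM of 6 interferon-stimulated genes (x axis, log scale), with a point for each library coloured by group. The points at 992 and 516 CPM on the x axis are IgG2a replicate 2 and aPD1ab replicate 2.

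Among themselves, the 8 genes other than Fcgrt rose and fell together over the 13 libraries, with Pearson's r of log2 CPM from 0.676 to 0.984 over the 28 pairs (median 0.884). Fcgrt had an r of 0.0256 to 0.526 with them. These libraries share the group differences and the mixture of cells, so the values describe the set and carry no test. The genes most like the mean of the 8, out of 16321, were Laptm5 (r = 0.995), Pld4 (0.994), Unc93b1 (0.993), Irf5 (0.992) and Clec4a2 (0.992). Fcgrt was most like Ddost (r = 0.873), Slc25a22, Derl1, Parp10 and Arfgap1 (0.864), over the same 13 libraries.

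The genes around the receptors were followed by lists, whose counts are to be read against all genes tested. Of all genes, 9.05% were higher and 8.38% lower in IgG2a than in young (22.1% and 23.5% without IgG2a replicate 1). In aPD1ab against young 12.4% were higher and 9.97% lower. Of the 4 IgG heavy chain genes, the ligands of these receptors, Ighg2b, Ighg2c and Ighg3 were higher in IgG2a than in young and also in aPD1ab than in young, and Ighg1 did not pass in either. Ighg3 overlapped between the groups, at 0.224 to 2.595 CPM in young, 2.29 to 23.9 in IgG2a and 0.326 to 58.4 in aPD1ab libraries. IgG2a replicate 2 (2.29) and aPD1ab replicates 2 (0.326) and 4 (1.10) lay within its young range. Ighg2b was at 3.77 to 10.4 CPM in young, at 15.4 to 90.9 CPM in IgG2a and at 36.15 to 128 CPM in aPD1ab libraries, so that each aged library was above all young ones. Its log2 fold change was 3.12 ± 0.51 in IgG2a (adjusted p = 0.00878, edgeR) and 3.52 ± 0.40 in aPD1ab (adjusted p = 0.00282), both against the same young libraries. The 4 plasma cell markers moved with them, with 4 of 4 higher in IgG2a and 3 of 4 in aPD1ab, and their summed CPM was 15.3 to 48.7 in young, 294 to 782 in IgG2a and 18.9 to 500.3 in aPD1ab libraries. Those transcripts come from mouse genes and do not measure the injected rat antibodies.

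Of the list of other Fc receptor genes, 4 of 11 tested were higher in IgG2a than in young: Fcrl5, Fcrls, Pigr and B2m. The list counts B2m, which encodes a light chain and is not itself an Fc receptor. Without IgG2a replicate 1 the count was 6 higher and 1 lower. Pigr, which carries polymeric immunoglobulin across epithelia, was higher by 1.09 ± 0.28 (log2, adjusted p = 0.0306), and by 0.68 ± 0.17 without that library (adjusted p = 0.00740). In aPD1ab against young 3 of 11 were higher, and Pigr was among them at 1.21 ± 0.18 (adjusted p = 0.00375, edgeR). Of the receptors known to pair with Fcer1g or Tyrobp, 10 of 19 tested were higher in IgG2a than in young and 0 lower, with a median log2 fold change of 1.22, and 14 of 19 were higher without IgG2a replicate 1. That list also holds Hcst, which encodes an adaptor and not a receptor, and Hcst is among the 14. Lilra5, the most abundant of them, did not pass at 0.59 ± 0.26 (adjusted p = 0.133, edgeR), but did without that library (0.79 ± 0.15, adjusted p = 0.00200). Those that passed with all libraries include Cd300ld at 1.22 ± 0.28 (adjusted p = 0.0232) and Cd300c2 at 1.39 ± 0.31 (adjusted p = 0.0204). In aPD1ab against young 3 of 19 were higher and 1 lower, where 12.4% of all genes were higher and 9.97% lower.

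Of the 12 kinases related to Lyn and Syk, 3 were higher and 1 lower in IgG2a than in young. Over all genes tested 9.05% were higher and 8.38% lower, which is the background for each list here. Csk, which restrains Src family kinases, was higher by 0.88 ± 0.24 (log2, adjusted p = 0.0375, edgeR). Fgr at 1.23 ± 0.42 (adjusted p = 0.0698) and Fyn at 0.37 ± 0.23 (adjusted p = 0.280) did not pass. Of the 18 adaptors and enzymes downstream of Syk 9 were higher, Grb2 among them at 0.65 ± 0.17 (adjusted p = 0.0331), while Plcg2 at 0.19 ± 0.19 did not pass. Of 13 inhibitors 5 were higher, including Sirpa at 1.29 ± 0.30 (adjusted p = 0.0231). Inpp5d, the phosphatase that Fcgr2b recruits, was at 0.65 ± 0.29 and did not pass (adjusted p = 0.142). Of 11 genes of phagocytosis and the oxidase 4 were higher, and Cybb, the catalytic subunit of the oxidase, at 0.80 ± 0.34 was not among them (adjusted p = 0.117).

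Without IgG2a replicate 1 Fgr, Fyn, Plcg2, Inpp5d and Cybb also passed, and these counts were 9 higher and 2 lower of 12 kinases, 16 higher and 1 lower of 18 adaptors and enzymes, 8 of 13 inhibitors and 11 of 11 phagocytosis genes. Over all genes 22.1% were then higher and 23.5% lower. In aPD1ab against IgG2a no gene of these lists passed with all libraries. Without that library 7 of 12 kinases, 15 of 18 adaptors and enzymes, 8 of 13 inhibitors and 10 of 11 phagocytosis genes were lower in aPD1ab, and 2 of the kinases were higher. Of all 15770 genes tested, 2086 (13.2%) were lower and 2702 higher. Cybb had the largest difference among the phagocytosis genes named by the rule, at -1.49 ± 0.20 (adjusted p = 0.00640, edgeR). In aPD1ab against young 1 of 12 kinases was higher and 1 lower, 0 of 18 adaptors and enzymes were higher and 2 lower, 2 of 13 inhibitors were higher and 2 lower, and 1 of 11 phagocytosis genes (Cyba, 0.78 ± 0.18, adjusted p = 0.0145) was higher. These counts are small, and over all genes 12.4% were higher and 9.97% lower.

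Markers of other leukocytes that carry Fc receptors differed widely in level. The 7 neutrophil markers summed to 18.3 to 73.5 CPM and the 5 NK cell markers to 1.12 to 4.49 CPM over all libraries. The 4 mast cell markers summed to 0.305 to 1.605 CPM in young, 0.0 to 0.899 in IgG2a and 0.204 to 0.794 in aPD1ab libraries, and of these Mcpt4 alone was at or under 3 counts in every library. The 6 dendritic cell markers, of which Itgax was the most abundant, summed to 163 to 274 CPM in young, 102 to 366 in IgG2a and 78.3 to 199.9 in aPD1ab libraries, and their part in the values of the 9 genes was not tested. B cell markers summed to 56.4 to 173 CPM in young, 53.3 to 281 in IgG2a and 42.2 to 159 in aPD1ab libraries, and 0 of 5 were called by edgeR in any of the 3 comparisons (0 of 5 also at an unadjusted p under 0.05). B cells are a known source of Fcgr2b, Lyn and Syk, and their part in those values was not tested.

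Sequence shared between genes limits how exactly reads could be assigned. Fcgr2b and Fcgr3 have an identical run of 129 coding bases, shown because a read that lies within it belongs to either gene. It spans an intron in both genes, at chr1:170966674-170968081 in Fcgr2b and chr1:171054167-171057792 in Fcgr3, on the minus strand of GRCm38.
Fcgr2b and Fcgr3: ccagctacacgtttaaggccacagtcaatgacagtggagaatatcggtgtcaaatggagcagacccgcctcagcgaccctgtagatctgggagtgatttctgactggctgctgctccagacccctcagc

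Of the 50-base windows of the Fcgr3 transcripts 9.58% also occur in Fcgr2b, and 2.92% of the Fcgr2b windows occur in Fcgr3. Of the Lyn windows 13.4% also occur in the pseudogene Gm11787, which itself held 0 to 14 counts. No window of Fcgr1, Fcgr4, Fcer1g, Fcgrt, Syk or Tyrobp is shared. Fcgr2b overlaps the antisense gene Gm38204 over 155 exon bases and Lyn overlaps Gm26857 over 248, and reads there cannot be told apart if strand was not used, which is not given in the sources used here.

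The RefSeq promoter table (GRCm38.p6) held windows for 7 of the 9 genes, all but Tyrobp and Lyn. The 250 bases before each start were searched on both strands for GAGGAAGT, a binding site form of the myeloid factor PU.1, and for GAAANNGAAA, the repeat found in interferon response elements. Fcgr4 alone of the 7 held either, and it held both. Some windows lie partly or wholly in annotated exons: all 250 bases of a Syk window, 203 of the Fcgr2b window and 6 of the Fcgr4 window. The lack of a match in the Syk and Fcgr2b windows is thus partly a statement about exon sequence. Of 32851 promoter windows of this length 2.44% held the first and 2.98% the second. The Fcgr4 window lies on the plus strand at chr1:171018676-171018925, with both matches in capitals (the first reads ACTTCCTC on this strand). A match of letters is a description and not a site in use.
Fcgr4: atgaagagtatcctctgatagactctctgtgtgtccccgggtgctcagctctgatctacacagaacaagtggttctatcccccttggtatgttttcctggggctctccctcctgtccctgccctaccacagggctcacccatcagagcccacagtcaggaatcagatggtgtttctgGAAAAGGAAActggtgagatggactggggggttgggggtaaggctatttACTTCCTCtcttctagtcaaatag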

How the data were processed

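Gene-level read counts were deposited as a single table of the series, 13 of whose 15 columns could be tied to a group through the numbers printed in a plot of the published study, since the labels do not carry them. The other 2 columns were not used. The authors' processing notes name HISAT2, featureCounts and the builds mm10 and GRCm38, and the versions are not given in the sources used here. The counts were used as deposited, and 45143 of 46078 Ensembl IDs were given symbols from GENCODE M21. Each pair of groups was tested with edgeR 4.0.16 in R 4.3.3 (quasi-likelihood F test, TMM normalisation, filterByExpr) with Benjamini-Hochberg adjustment over all genes tested and a call at an adjusted p under 0.05. CPM values use TMM factors over all 13 libraries, and log2 CPM a prior count of 2. Alternatives were DESeq2 1.42.0, limma 3.58.1 voom with sample quality weights, DESeq2 size factors, no filter, a 2-fold threshold, a fit of all 3 groups, removal of mitochondrially encoded genes and removal of each library in turn. Ratios to the macrophage markers (0.5 added to each sum) were tested by exact permutation over libraries. The edgeR test was checked on simulated data. Nothing in the labels says that libraries of a group were prepared on different days, and p-values measure the spread between the mice sampled. The sample titles carry a number that is shared within each group and differs between the 3 groups. What it marks is not given in the sources used here, and whatever it marks cannot be told apart from the group in any comparison. The 9 genes and the lists were chosen with earlier results of these data known. Named genes are the 9, the up to 4 most abundant tested genes of each other pathway list, the 2 most abundant markers of each cell type and the 5 genes most like the set. A few genes outside this rule were named after their values were seen (Mertk, Fcrl5, Fcrls, Mcpt4 and the 6 interferon-stimulated genes). Not every gene that the rule names is reported here.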

Additional observations from a re-analysis of the deposited data

Results flagged for a closer look

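Dixon's test was applied to 66 sets of libraries (9 genes as CPM and per 1000 macrophage marker counts and the shares of 4 receptors, each in 3 groups). By it, 8 values lay far from the others of their group, which chance does in about 1 of 20 sets. Some libraries were flagged more than once, aPD1ab replicate 2 most often. Among IgG2a libraries, Fcgr2b was at 140.0 CPM in replicate 1 against 328 in the nearest other, Fcgrt was at 36.0 per 1000 macrophage marker counts in replicate 1 against 16.2, and Fcgr1 held 16.9% of the 4 receptors in replicate 2 against 9.61%. In aPD1ab replicate 2, Fcgr1 was at 18.0 per 1000 against 9.22 and held 17.1% of the receptors against 9.48%, Fcgr3 held 31.4% against 42.1%, and Fcgrt was at 69.6 per 1000 against 29.8. Young replicate 4 held 68.8 Fcgr2b counts per 1000 against 53.5. Most of these sets share counts with each other, so the flags are not independent.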

How the results depend on the processing

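For IgG2a against young, a 2-fold threshold left 1353 of 15953 genes tested. DESeq2 called 4253 of 17783 genes and 7 of the 9. Limma voom with sample quality weights called 7447 of 15953 genes and 8 of the 9. The edgeR fit of all 3 groups called 2282 of 16330 genes and 5 of the 9. For aPD1ab against IgG2a, DESeq2 called 2087 of 15453 genes and 1 of the 9. Limma voom called 6177 of 15530 and 8 of the 9, and the fit of all 3 groups 2863 of 16330 and 1 of the 9. For aPD1ab against young the 2-fold threshold left 766 genes and 0 of the 9, and 0 of the 9 were also called without a filter on low counts and in the fit of all 3 groups. Leaving out single libraries gave 553 to 7397 genes and 0 to 8 of the 9 in the first comparison, 0 to 4788 and 0 to 7 in the second, and 2369 to 3868 and 0 to 2 in the third. The cause of these differences was not tested.

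Apart from left-out libraries, signs turned only for values near 0: by limma voom, Fcgrt was at -0.035 in aPD1ab against IgG2a and Fcgr1 at -0.038 in aPD1ab against young, and with C1qa, C1qb and C1qc as the denominator the Tyrobp ratio differed from young by -0.16 in IgG2a, -0.058 in aPD1ab and -0.11 in both together. With single libraries left out, log2 fold changes that turned sign ranged from -0.0034 to 0.19 for Fcgrt in aPD1ab against IgG2a, and against young from -0.00072 to 0.27 for Fcgr1, -0.17 to 0.16 for Fcgr2b, -0.078 to 0.27 for Syk and -0.16 to 0.059 for Lyn. Ratios that turned ranged from -0.026 to 0.027 for Tyrobp in IgG2a against young and, in aPD1ab against IgG2a, from -0.30 to 0.22 for Fcgr1, -0.13 to 0.10 for Fcgr4 and -0.15 to 0.042 for Lyn. As counts not divided by length, Fcgr2b made up 46.6%, 42.1% and 44.2% of the 4 receptors in young, IgG2a and aPD1ab.

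No paired analysis was possible because the labels and columns carry no replicate number shared between groups. Limits are the groups of 4 and 5 mice, the mixture of cells in the fraction and the library that stands apart, and all 9 genes were above 3 counts in every library.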
